A study of Saccharomyces cerevisiae with 6 samples.

Results

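The genes described here encode the enzymes of the tricarboxylic acid (TCA) cycle and the nuclear-encoded subunits of the mitochondrial respiratory chain and ATP synthase of budding yeast. The list holds 46 genes, found by name among the 6256 genes on the array, and every one of them gave ratios. By role they were 12 genes of the TCA cycle, 4 of succinate dehydrogenase, 3 of the NADH dehydrogenases, 9 of the cytochrome bc1 complex, 7 of cytochrome c oxidase and 11 of the ATP synthase.

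In the TCA cycle acetyl units are oxidized in the mitochondrial matrix and the electrons are collected as NADH and succinate. NADH dehydrogenases and succinate dehydrogenase pass these electrons to ubiquinone, the bc1 complex passes them on to cytochrome c, and cytochrome c oxidase gives them to oxygen. The proton gradient made on the way drives the ATP synthase. Budding yeast lacks the large proton-pumping complex I of animals and uses single-polypeptide NADH dehydrogenases instead. Cells growing on glucose ferment it and repress many of these genes, and the Hap2/3/4/5 transcription factor activates many of them when glucose runs low.

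Each of 6 arrays with 2 colours set RNA of a *myo1Δ* strain, which lacks the myosin II heavy chain of the cytokinetic ring, against RNA of a wild type strain. Arrays 1 to 3 held YJR13 (*myo1Δ*, MATa) with YJR12 (wild type, MATα), each a meiotic segregant of YJR6 crossed with BY4741, and arrays 4 to 6 held YJR6 (*myo1Δ*, MATα) with its wild type parent MGD353-46D (MATα). YJR6 had been made from that parent by homologous recombination, so each genotype of a pair is a single strain. By the strain list all carry *his3Δ1* and mutant alleles of *trp1*, *ura3* and *leu2* and are ADE+ and cyhR, YJR12 is listed as ARG+ and the others as ARG, and the mutants alone carry *myo1Δ::HIS5+*. Cells were grown overnight at 26°C in complete synthetic medium with 2% glucose or the same without histidine, to an OD600 of 0.5 to 0.8. Wild type cells with *his3Δ1* cannot grow without histidine, and the study's text assigns the dropout medium to the mutants and the complete medium to the wild types, so that medium and genotype cannot be told apart in either pair. RNA came from triplicate cultures of each strain, but no source ties a culture to an array, so p-values measure the spread between these arrays, which may be technical. A lower amount of an RNA per cell cannot be told apart from fewer cells that make it.

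The log2 ratio of *MYO1* was below 0 on 6 of 6 arrays and averaged -2.17 (SE 0.29, limma, adjusted p = 0.00466). The mutant was labeled with Cy5 on arrays 1, 3, 4 and 6 and with Cy3 on arrays 2 and 5. Over all genes, array 3 correlated with the other arrays at r of 0.144 to 0.477, whereas the other 5 correlated with each other at 0.546 to 0.77. Array 5 had the most poor spots, 192 against 32 to 81 on the others. Values are therefore given for each array.

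All ratios below are log2 of *myo1Δ* over wild type after background correction and loess normalization. A gene was called higher or lower where its mean over the 6 arrays differed from 0 at an adjusted p of 0.05 in limma, with Benjamini-Hochberg adjustment over all genes. Of the 46 genes, 20 (43.5%) rose in *myo1Δ* strains, where 14.2% of all genes on the array rose, and 0 fell in limma, where 12.9% of all genes fell. At an adjusted p of 0.01 the genes that rose were 7, against 3.47% of all genes, and 0 fell, against 3.96%. At an unadjusted p of 0.05, 24 were higher (21.6% of all genes) and 0 lower (19.1%), and at an unadjusted p of 0.01, 19 were higher (12.9%). The mean ratio was above 0 in 37 of the 46 and their median was 0.61, where the median of all genes was 0.00. On every array that gave a value 19 genes were higher in the mutant, against 14.3% of all genes.

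The rise was spread unevenly along the pathway. All 4 succinate dehydrogenase genes, all 3 NADH dehydrogenase genes and 7 of 9 bc1 genes rose, with medians of 1.36, 1.30 and 1.01. In contrast, 1 of 7 cytochrome c oxidase genes and 1 of 11 ATP synthase genes rose, with medians of 0.39 and 0.02, shares of 14.3% and 9.09% that lie near or below the share of all genes. The TCA cycle enzymes lay between, with 4 of 12 higher and a median of 0.56. The plot of all members by array shows this order for the means over 6 arrays, but single arrays departed from it. On array 3 the medians were 0.81 for the TCA genes, 0.60 for complex V and 0.40 for complex II. On array 5 complex IV (0.39) lay above complex III (0.25) and the TCA genes (0.02). On array 2 complex IV (0.78) lay above the TCA genes (0.58). The counts above describe the lists and no test was made between complexes.

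**Figure D1:**
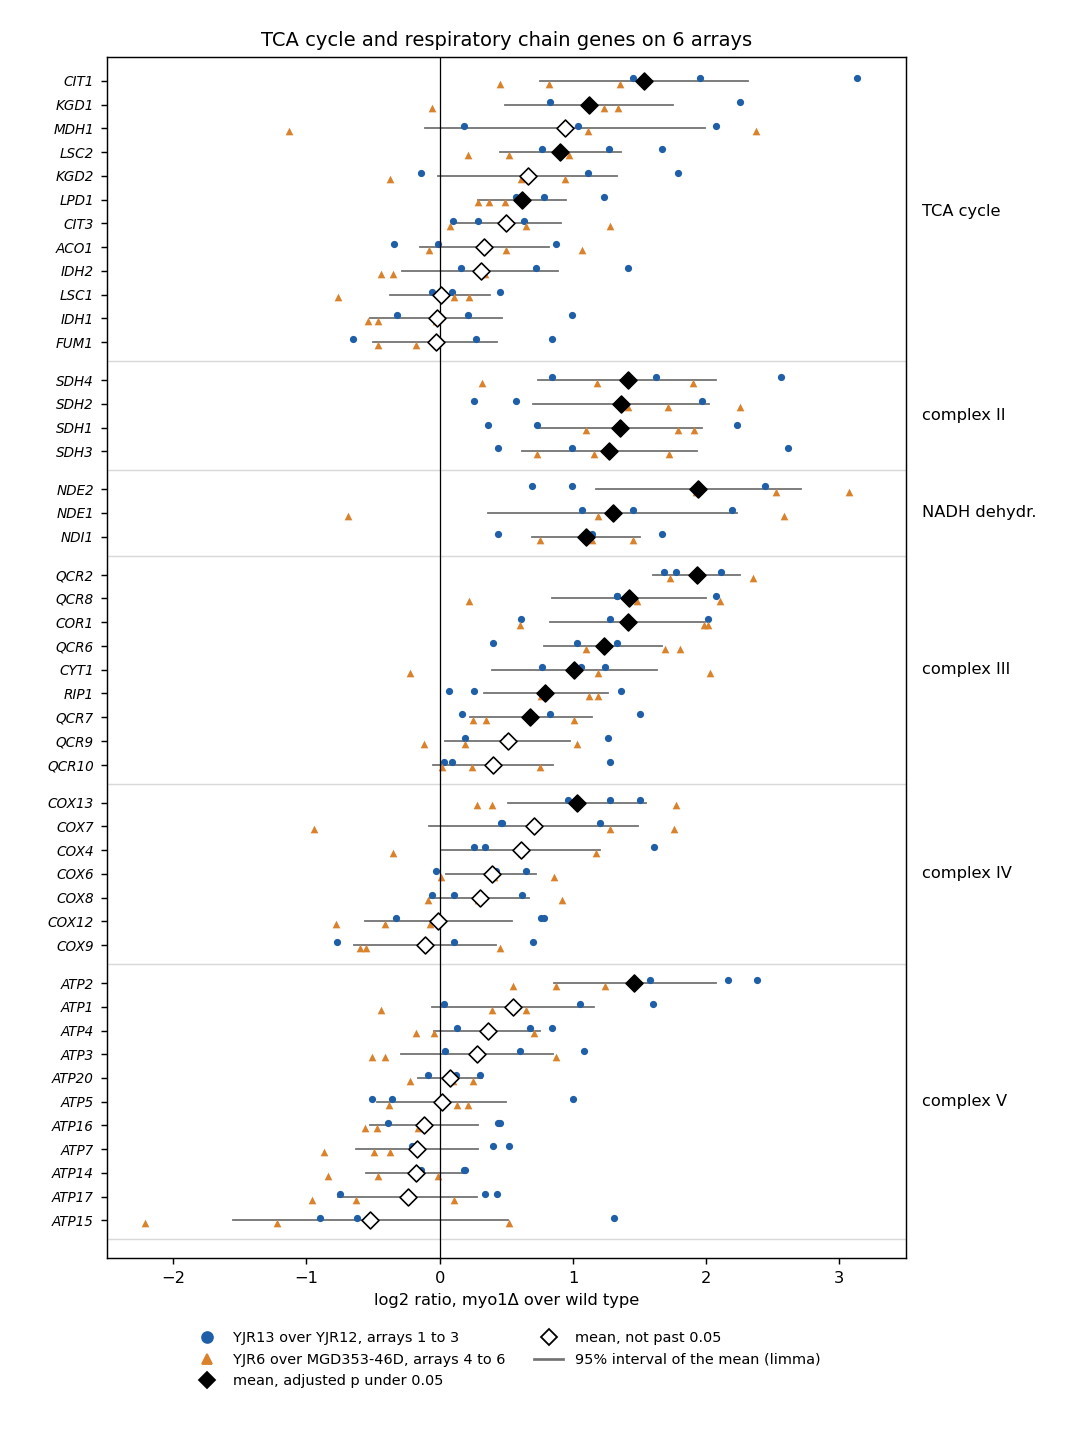
Log2 ratio of myo1Δ over wild type (horizontal axis) for each of the 46 genes, grouped by complex. Circles are arrays 1 to 3 (YJR13 over YJR12), triangles arrays 4 to 6 (YJR6 over MGD353-46D), diamonds the mean over arrays with its 95% interval from limma, filled where the adjusted p was under 0.05. Filled diamonds occupy all rows of complex II and of the NADH dehydrogenases and 7 of 9 rows of complex III, and 1 row each of complexes IV and V.

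In the TCA cycle *CIT1*, the mitochondrial citrate synthase at the entry of the cycle, was highest. Its log2 ratios were 1.95, 3.13 and 1.45 in the YJR13 pair, against 1.35, 0.82 and 0.45 in the YJR6 pair. The mutant was higher on every array. *CIT1* rose 2.88-fold (log2 1.53, SE 0.33, limma adjusted p = 0.0184), a call that ended with median normalization and without array 1.

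The other TCA genes that rose belong to the middle of the cycle. *KGD1*, the first component of the alpha-ketoglutarate dehydrogenase complex, averaged 1.12 (SE 0.27, adjusted p = 0.0241). Its partner *KGD2*, the succinyltransferase component, averaged 0.66 and did not pass the test (adjusted p = 0.13). *LPD1*, the lipoamide dehydrogenase that this complex shares with pyruvate dehydrogenase, rose by 0.62 (SE 0.14, adjusted p = 0.0203). It varied least among the TCA genes, with values from 0.29 to 1.23 and an SD of 0.34 over the 6 arrays. The calls of *KGD1*, *LPD1* and *LSC2* each ended under at least 1 other normalization or background correction or without at least 1 array, among them array 1 for *KGD1* and *LPD1* and array 6 for *KGD1* and *LSC2*.

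Succinyl-CoA ligase, the step that makes ATP or GTP directly, is built of an alpha subunit (*LSC1*) and a beta subunit (*LSC2*), and their ratios differed. *LSC2* had log2 ratios of 1.27, 1.67 and 0.77 in the YJR13 pair, against 0.52, 0.21 and 0.97 in the YJR6 pair. *LSC1* had -0.06, 0.09 and 0.45 in the YJR13 pair, against 0.22, 0.11 and -0.76 in the YJR6 pair. *LSC2* lay above *LSC1* on 6 of 6 arrays, by 0.90 ± 0.73 (SD, n = 6). *LSC2* rose 1.87-fold (SE 0.19 on the log2 scale, adjusted p = 0.0177), while *LSC1* averaged 0.01 (adjusted p = 0.979).

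The remaining TCA genes did not pass the test, with mean log2 ratios of -0.03 to 0.94. *MDH1*, the mitochondrial malate dehydrogenase, had a mean close to that of *LSC2* but ratios of 1.04, 0.18 and 2.07 in the YJR13 pair, against 1.11, -1.13 and 2.37 in the YJR6 pair. The low value was on array 5, and the SD over the arrays was 1.28 (adjusted p = 0.157). Without array 5 *MDH1* was called higher (limma adjusted p = 0.0355). *FUM1*, fumarase, was lowest, with 0.27, -0.65 and 0.84 in the YJR13 pair, against -0.02, -0.18 and -0.46 in the YJR6 pair. It was above 0 on 2 of 6 arrays and averaged -0.03 (SE 0.20, adjusted p = 0.922). Between these lay *CIT3*, a second mitochondrial citrate synthase, at 0.50, aconitase (*ACO1*) at 0.33, and the subunits of NAD-dependent isocitrate dehydrogenase, *IDH2* at 0.31 and *IDH1* at -0.02. The spots of *CIT3* were dim, and its wild type channel exceeded the negative control spots on 5 of 6 arrays. *CIT3* was called higher with plain subtraction (1.12, adjusted p = 0.0122), with a normexp offset of 0 (1.44, adjusted p = 0.00511) and with the slide as a random block, and *ACO1* with a term for the dye (0.49, adjusted p = 0.0451).

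Succinate dehydrogenase, complex II, is the enzyme that the cycle and the chain share. All 4 of its genes rose, and their means lay within 1.27 to 1.41. *SDH4*, a membrane anchor subunit, had 1.62, 2.56 and 0.84 in the YJR13 pair, against 1.90, 0.32 and 1.18 in the YJR6 pair. It rose 2.65-fold (SE 0.28, adjusted p = 0.0146). *SDH3*, the other anchor and cytochrome b subunit, had 0.99, 2.61 and 0.44 in the YJR13 pair, against 1.16, 1.72 and 0.73 in the YJR6 pair. All values of both genes were above 0, and *SDH3* rose 2.42-fold (SE 0.28, adjusted p = 0.0187).

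The catalytic subunits were alike in size under the main processing. Across the alternatives run the mean of *SDH1* ran from 0.93 to 1.70 and that of *SDH2* from 0.74 to 2.34. The wild type channels of *SDH2* were at 1.11 to 1.44 times background. *SDH1*, the flavoprotein, rose 2.56-fold (adjusted p = 0.0129) and *SDH2*, the iron-sulfur protein, 2.57-fold (adjusted p = 0.0156). Each was higher on 6 of 6 arrays. The calls of *SDH1* and *SDH4* held under every other setting tried and without each array in turn, while that of *SDH2* ended without array 2 and that of *SDH3* without array 4. Array 2 was high for the whole complex, with a median over the 4 genes of 2.40, and array 3 was low, with a median of 0.40.

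The 3 NADH dehydrogenases are separate enzymes, *NDI1* facing the matrix and *NDE1* and *NDE2* facing the intermembrane space, where they oxidize cytosolic NADH. *NDI1* had log2 ratios of 1.14, 1.67 and 0.44 in the YJR13 pair, against 1.45, 0.75 and 1.14 in the YJR6 pair, a rise of 2.14-fold (SE 0.17, adjusted p = 0.00664). *NDE2* had the highest mean of all 46 genes under the main processing. Its ratios were 0.99, 2.44 and 0.69 in the YJR13 pair, against 3.07, 2.52 and 1.92 in the YJR6 pair, a rise of 3.83-fold (log2 1.94, SE 0.33, adjusted p = 0.00868). The wild type channels of *NDE2* were at 1.10 to 1.56 times background, and across the alternatives run its mean ran from 1.18 to 3.17.

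*NDI1* and *NDE2* were above 0 on every array, and both calls held under every other setting and without each array. *NDE1* averaged 1.30 (SE 0.40, adjusted p = 0.0492). It was at -0.69 on array 5 and between 1.07 and 2.58 on the others, and its call ended under 5 of the 11 other settings and without array 1, 2, 3, 4 or 6. The external enzymes were not ordered across arrays, since *NDE2* lay above *NDE1* on 3 of 6.

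The cytochrome bc1 complex, complex III, had the most genes past the stricter threshold. *QCR2*, a core subunit, had 1.77, 1.68 and 2.11 in the YJR13 pair, against 2.35 and 1.73 in the YJR6 pair, where its spot on array 5 was marked poor and left out. These values lay close together, with an SD of 0.29 over 5 arrays. *QCR2* rose 3.80-fold (log2 1.93, SE 0.14, adjusted p = 0.00212), the smallest adjusted p among the 46 genes.

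*COR1*, the other core subunit, had 1.28, 2.01 and 0.61 in the YJR13 pair, against 1.98, 0.60 and 2.01 in the YJR6 pair, and rose 2.66-fold (SE 0.25, adjusted p = 0.00929). *QCR8*, a small subunit next to the ubiquinone site, had 1.33, 2.07 and 1.33 in the YJR13 pair, against 2.10, 0.22 and 1.48 in the YJR6 pair, and rose 2.68-fold (SE 0.25, adjusted p = 0.00917). *QCR6*, the acidic hinge subunit, had 1.03, 1.33 and 0.40 in the YJR13 pair, against 1.80, 1.10 and 1.69 in the YJR6 pair, and rose 2.34-fold (SE 0.19, adjusted p = 0.00651). All values of these 3 genes were above 0, with the lowest of *COR1* and *QCR8* on array 5 and that of *QCR6* on array 3. The calls at 0.05 of *COR1*, *QCR2*, *QCR6* and *QCR8* held under every other setting and without each array.

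The subunits with a bound redox centre had lower means. *CYT1*, cytochrome c1, averaged 1.01 (SE 0.26, adjusted p = 0.03) and was below 0 on array 5 alone. *RIP1*, the Rieske iron-sulfur protein, averaged 0.79 (SE 0.20, adjusted p = 0.0261), and *QCR7*, a small subunit, 0.68 (SE 0.19, adjusted p = 0.0394). The calls of *CYT1* and *QCR7* ended without background correction and with a term for the dye, and each of these 3 ended without 4 or 5 of the 6 arrays in turn, among them arrays 2, 4 and 6.

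The smallest subunits of complex III were the lowest. *QCR10* had 0.03, 1.28 and 0.09 in the YJR13 pair, against 0.75, 0.24 and 0.02 in the YJR6 pair, all above 0 but most of them small, with a mean of 0.40 (SE 0.19, adjusted p = 0.157). *QCR9* averaged 0.51 (adjusted p = 0.0975). Both spots were dim, with *QCR10* at 1.06 to 1.61 times local background in the mutant channels and 1.03 to 1.14 times in the wild type channels. Ratios of such spots depend on the background correction, and *QCR9* was called with plain subtraction and with a normexp offset of 0.

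In cytochrome c oxidase, complex IV, *COX13* was the gene that rose. It encodes a subunit that is not needed for assembly of the core. *COX13* had 1.28, 1.50 and 0.96 in the YJR13 pair, against 0.28, 0.39 and 1.77 in the YJR6 pair. The mutant was higher on every array, by 2.04-fold (log2 1.03, SE 0.22, adjusted p = 0.0173), and the call ended without array 2.

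The other 6 oxidase genes had means from -0.11 to 0.71. *COX7* was at 0.71, *COX4* at 0.61, *COX6* at 0.39, *COX8* at 0.30 and *COX12* at -0.01, with adjusted p of 0.0827 to 0.979. *COX9* was lowest, with -0.77, 0.70 and 0.11 in the YJR13 pair, against 0.45, -0.55 and -0.60 in the YJR6 pair, evenly split around 0 (mean -0.11, SE 0.22, adjusted p = 0.754). At an unadjusted p of 0.05, 3 of the 7 were higher. *COX4* was called with a normexp offset of 0 and *COX8* with a term for the dye. Without array 6 *COX7* was called higher (limma adjusted p = 0.0343).

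Complex V stood out for a single gene. *ATP2*, the catalytic beta subunit of the F1 sector, had 1.58, 2.16 and 2.38 in the YJR13 pair, against 0.55, 0.87 and 1.24 in the YJR6 pair. On every array the mutant was higher. *ATP2* rose 2.76-fold (log2 1.46, SE 0.26, adjusted p = 0.00954), a call that ended with median normalization (adjusted p = 0.0792). *ATP1*, the alpha subunit that alternates with it in the F1 ring, had 0.03, 1.05 and 1.60 in the YJR13 pair, against 0.65, -0.44 and 0.39 in the YJR6 pair, with a mean of 0.55 (adjusted p = 0.157).

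The other 9 ATP synthase genes had means from -0.52 to 0.36. The rest of F1 was at 0.28 for *ATP3* (gamma), -0.12 for *ATP16* (delta) and -0.52 for *ATP15* (epsilon). *ATP15* had -0.62, -0.90 and 1.31 in the YJR13 pair, against 0.52, -2.21 and -1.22 in the YJR6 pair. It was above 0 on arrays 3 and 4 and as low as -2.21 on array 5, so that its mean, the lowest of all 46 genes, carried an SE of 0.44 (adjusted p = 0.412). In the stator and membrane sector *ATP4* was at 0.36, *ATP20* at 0.08, *ATP5* at 0.02, *ATP7* at -0.17, *ATP14* at -0.18 and *ATP17* at -0.24. The 95% intervals of these 6 reached no further down than -0.76 and no further up than 0.75. These limits hold for the main processing alone and do not bound the change in dim spots. In the mutant channels *ATP20* was at 1.10 to 1.30 and *ATP14* at 1.08 to 1.44 times background. Across the alternatives run the mean of *ATP20* reached 0.56, above its interval limit of 0.32.

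Signal strength also differed between the complexes. Median spots were 3.30 times background in the mutant channels for complex II and 2.92 for complex III, against 1.33 and 1.39 in the wild type channels. They were 1.88 for complex IV and 2.50 for complex V in the mutant channels, against 1.49 and 2.27 in the wild type channels. The NADH dehydrogenases were at 4.18 in the mutant and 1.68 in the wild type channels, and the TCA genes at 6.39 in the mutant and 3.86 in the wild type channels. The part of spot brightness in the order of the complexes was not tested. The mutant channel of every member exceeded the negative control spots on all arrays with a value. In the wild type channel *CIT3*, *QCR9* and *ATP20* did so on 5 of 6.

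Ratios also varied by array. The median over the 46 genes was 0.52, 1.16 and 0.61 in the YJR13 pair, against 0.63, 0.21 and 0.43 in the YJR6 pair, and the mutant was higher for 33, 41, 45, 36, 26 and 31 genes on arrays 1 to 6. Array 5 held the lowest value of 16 genes, and 5 genes, *KGD1*, *MDH1*, *NDE1*, *CYT1* and *ATP1*, were below 0 there and above 0 on the other 5 arrays. Array 2 held the highest value of 16 genes and array 3 that of 15. The mutant carried Cy3 on both arrays 2 and 5, which had the highest and the lowest median. With a term for the dye 19 of the 46 genes rose, where 13.9% of all genes rose. Complex V had its highest array median, 0.60, on array 3, where complex II had its lowest, 0.40.

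**Figure D2:**
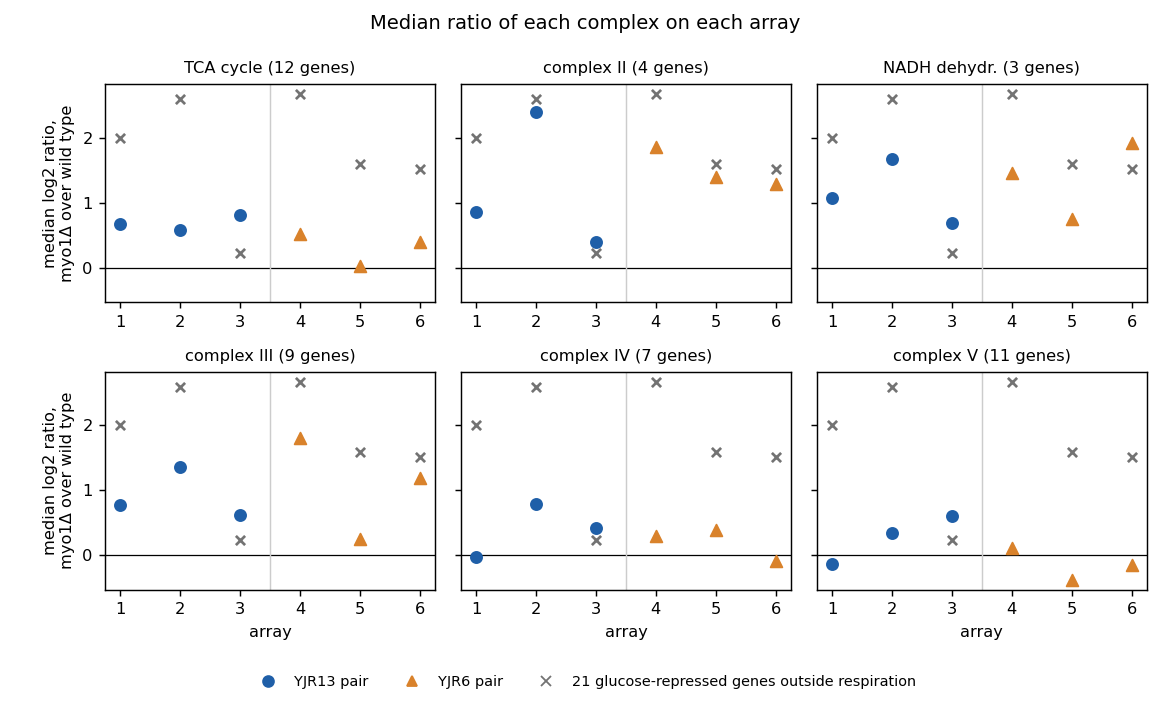
Median log2 ratio of myo1Δ over wild type (vertical axis) of each complex on arrays 1 to 6 (horizontal axis). Circles are the YJR13 pair, triangles the YJR6 pair and crosses the median of the glucose-repressed genes outside respiration, repeated in each panel. The crosses drop to 0.23 on array 3, where the TCA cycle and complex V have their highest medians of 0.81 and 0.60.

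Genes that glucose represses outside respiration were set beside these. Of 21 such genes, chosen from general knowledge, 16 (76.2%) rose and 0 fell in limma, where 14.2% of all genes rose and 12.9% fell. The median of the 21 genes was 1.96, and 21 means were above 0. Of these 16 calls 9 ended without array 2, those of *HXT6*, *SUC2*, *ALD4*, *ACS1*, *JEN1*, *SIP18*, *MAL11*, *POX1* and *POT1*, 6 without array 4 and 0 without array 3. Lowest in p were *GLK1*, glucokinase (log2 2.78, adjusted p = 0.00476), *HXK1*, hexokinase 1 (3.82, adjusted p = 0.00766), *CAT2*, carnitine acetyltransferase (1.96, adjusted p = 0.00806), and *PCK1*, the gluconeogenic carboxykinase (1.44, adjusted p = 0.0116). The array medians of the 21 genes were 2.00, 2.59 and 0.23 in the YJR13 pair, against 2.67, 1.59 and 1.51 in the YJR6 pair. On array 3 their median was lowest, with 14 of the 21 at their lowest value, while 45 of the 46 TCA and respiratory genes were higher in the mutant. What part this shift had in the ratios of the 46 genes was not tested.

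Isoforms that yeast exchanges with oxygen supply lie beside the list. *CYC7*, the isoform of cytochrome c made at low oxygen, rose 5.50-fold (log2 2.46, SE 0.41, adjusted p = 0.00836), with values from 1.29 to 4.12 and none below 0. Its wild type channels were at 1.04 to 1.76 times background. Across the alternatives run its mean ran from 1.57 to 4.29, so the size of the rise depends on the processing. *CYC1*, the main isoform, averaged -0.01, but its spots were 1.05 to 1.19 times background in the mutant channels and 1.04 to 1.19 times in the wild type channels, so that its ratio holds little information. *COX5B*, the low-oxygen isoform of subunit 5 of the oxidase, rose 2.74-fold (adjusted p = 0.0188). Its aerobic counterpart *COX5A* averaged 0.30 (adjusted p = 0.342). *COX5B* lay above *COX5A* on 6 of 6 arrays, by 1.16 ± 0.63 (SD, n = 6). *AAC3*, the ADP/ATP carrier of anaerobic growth, went the other way and was lower on 6 of 6 arrays (-1.08, limma adjusted p = 0.0161). The other ADP/ATP carriers, *AAC1* and *PET9*, averaged 0.98 (adjusted p = 0.0166) and 0.38 (adjusted p = 0.323). *COX5B*, these pairs and the carriers were chosen after their values were seen, so no test was made between isoforms.

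**Figure D3:**
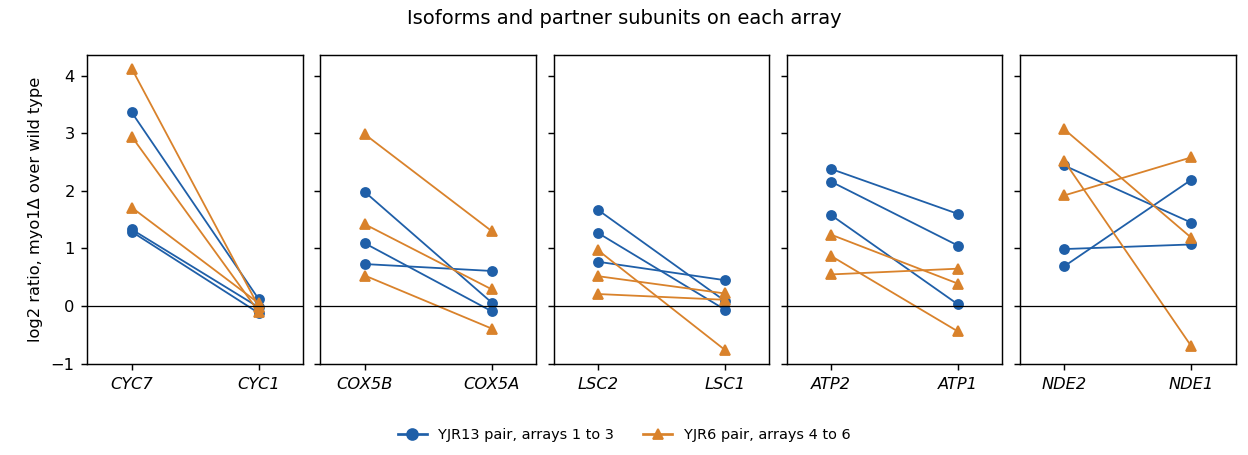
Log2 ratio of myo1Δ over wild type (vertical axis) of isoforms and partner subunits, with a line joining the values of both genes on the same array. Circles are the YJR13 pair and triangles the YJR6 pair. Lines slope down to the right on all 6 arrays for CYC7 and CYC1, COX5B and COX5A, and LSC2 and LSC1, on 5 of 6 for ATP2 and ATP1, and on 3 of 6 for NDE2 and NDE1.

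The strain pairs were then examined apart. In the YJR13 pair 3 of the 46 genes, *CIT1*, *QCR2* and *ATP2*, rose at an adjusted p of 0.05, where 0.576% of all genes rose, and 0 fell in limma, where 0.671% fell. In the YJR6 pair 9 rose, namely *SDH1*, *SDH2*, *NDI1*, *NDE2*, *COR1*, *QCR2*, *QCR6*, *RIP1* and *ATP2*, where 9.94% of all genes rose, and 0 fell, where 8.20% fell. These counts rest on single arrays and settings. Without 1 array they ran from 0 to 3 and from 0 to 9, being 0 in the YJR13 pair without array 1, 2, 3 or 6 and 0 in the YJR6 pair without array 4 or 6. With a normexp offset of 0 they were 14 and 10. The shares of all genes in each pair under these changes are not given here.

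The difference between pairs was tested for each gene. At an adjusted p of 0.05 it was past the threshold for 0 of the 46 genes in limma, where 0.0639% of all genes passed. At an unadjusted p of 0.05 it was past for 3, *CIT1*, *ATP2* and *ATP7*, where 7.56% of all genes passed. This count of 3 lies near the share of all genes. The largest differences in size, YJR13 pair minus YJR6 pair, were 1.31 for *CIT1* (SE 0.48, adjusted p = 0.603), 1.15 for *ATP2* (SE 0.30, adjusted p = 0.554), -1.13 for *NDE2* (SE 0.54, adjusted p = 0.711), and 0.91 each for *IDH2* (SE 0.39, adjusted p = 0.675) and *ATP15* (SE 0.87, adjusted p = 0.854). *IDH2* had 0.72, 0.16 and 1.41 in the YJR13 pair, against -0.44, -0.35 and 0.34 in the YJR6 pair, so its groups overlapped, as did those of *NDE2* and *ATP15*.

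The ratio was larger in the YJR13 pair for 34 of the 46 genes (73.9%), where this held for 48.9% of all genes. By complex this was so for 11 of 11 ATP synthase genes, 10 of 12 TCA genes, 5 of 7 oxidase genes, 5 of 9 bc1 genes, 2 of 4 succinate dehydrogenase genes and 1 of 3 NADH dehydrogenases. These genes share the same arrays, so such counts do not stand for independent replicates. The median of the TCA genes was 0.81 in the YJR13 pair, against 0.44 in the YJR6 pair, and that of complex V 0.16 and -0.02. By array, medians of complex V overlapped, at -0.14, 0.34 and 0.60 against 0.11, -0.38 and -0.16. Those of all 46 genes overlapped too, while those of the TCA genes were 0.67, 0.58 and 0.81 against 0.51, 0.02 and 0.39. Complex II was at 1.23 in the YJR13 pair, against 1.40 in the YJR6 pair. The mating types differ within the YJR13 pair alone, and the medians of 4 MATα-specific genes were -2.90 in the YJR13 pair, against -0.50 in the YJR6 pair, and those of 7 MATa-specific genes 0.75 and 0.32. Mating type, background, medium and *MYO1* cannot be told apart within the YJR13 pair.

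**Figure D4:**
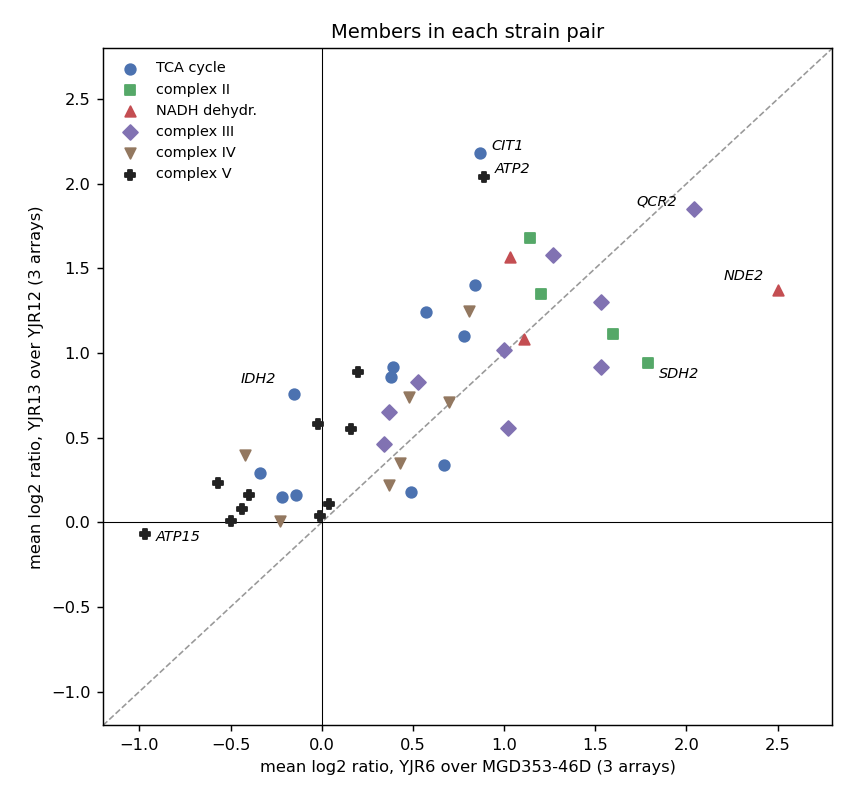
Mean log2 ratio in the YJR13 pair (vertical axis) against that in the YJR6 pair (horizontal axis) for the 46 genes, each over 3 arrays. The dashed line marks equal values and symbols mark the complexes. All 11 ATP synthase genes lie above the line, and CIT1 and ATP2 lie farthest above it, while NDE2 lies farthest below. The points share the same arrays and are not independent.

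Other genes of the pathway were listed from general knowledge, 120 in all. Of these 34 (28.3%) rose and 6 fell at an adjusted p of 0.05, where 14.2% of all genes rose and 12.9% fell. At an adjusted p of 0.01, 8 rose (6.67%), against 3.47% of all genes. The counts of the lists below are to be read beside these shares of all genes. Their median was 0.29. The 8 were *CYC7* and 7 genes described next. Of the 40 that changed, 12 were called under every setting and without each array, among them these 8.

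Enzymes that feed electrons into the chain beside the TCA cycle were high, with 3 of 4 called and a median of 1.65. *GUT2*, the mitochondrial glycerol-3-phosphate dehydrogenase, had 1.89, 2.50 and 1.86 in the YJR13 pair, against 2.80, 0.95 and 1.44 in the YJR6 pair, a rise of 3.75-fold (SE 0.24, adjusted p = 0.00423). *CYB2*, the L-lactate dehydrogenase that reduces cytochrome c, had 1.95, 2.90 and 0.89 in the YJR13 pair, against 3.85, 2.47 and 2.56 in the YJR6 pair, a rise of 5.42-fold (SE 0.34, adjusted p = 0.00496). Both were higher on every array. *DLD2*, a D-2-hydroxyglutarate dehydrogenase, was lowest at 0.07.

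Among isoenzymes and side reactions 6 of 13 rose. *IDP2*, the cytosolic NADP-dependent isocitrate dehydrogenase, rose 2.56-fold (SE 0.23, adjusted p = 0.00891), with values from 0.44 to 2.34. *CIT2*, the peroxisomal citrate synthase, had the highest mean of this group, 1.70, but was at -1.89 on array 3 and did not pass the test (adjusted p = 0.11).

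Of 6 further subunits and inhibitors of the ATP synthase 2 rose. *STF2*, a stabilizing factor of the inhibited enzyme, had 2.78, 2.57 and 2.93 in the YJR13 pair, against 2.95, 1.30 and 4.62 in the YJR6 pair, a rise of 7.24-fold (SE 0.37, adjusted p = 0.00423). *INH1*, the inhibitor of ATP hydrolysis, named after its value was seen, rose 1.83-fold (adjusted p = 0.0193), and *TIM11*, subunit e, was lowest at 0.05. Of 6 assembly factors *ATP22*, which acts in translation of *ATP6*, rose (0.75), *ATP11*, a chaperone of the beta subunit, fell (-0.45, adjusted p = 0.027), and *ATP12*, a chaperone of the alpha subunit, had the lowest mean (-0.59, adjusted p = 0.0922). With 1 assembly factor up and 1 down, these counts lie near the shares of all genes, 14.2% and 12.9%.

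Assembly factors of complex IV included 6 of 24 that rose and 1 that fell. *COX15*, heme A synthase, rose 2.34-fold (SE 0.21, adjusted p = 0.00891) and *COX20*, a chaperone of the mitochondrially encoded subunit 2, rose 2.13-fold (SE 0.14, adjusted p = 0.00423), both on 6 of 6 arrays. *OXA1*, the inner membrane insertase, fell by 0.61 (SE 0.13, adjusted p = 0.018). Of 10 factors for complex III 4 rose, with *CBP4*, an assembly factor, highest at 0.86 and *CBS1*, a translational activator, lowest at -0.16.

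Of 7 paralogs and assembly factors of succinate dehydrogenase 2 (28.6%) rose. These were paralogs of the anchors, *SHH3* by 1.25 (limma adjusted p = 0.0183) and *SHH4* by 1.11 (adjusted p = 0.015). A further paralog, *YJL045W*, averaged 0.06 (adjusted p = 0.661), and the lowest was *SDH7*, an assembly factor, at -0.13. The wild type channels of *SHH3* and *YJL045W* exceeded the negative controls on 4 of 6 arrays. Across the alternatives run the mean of *SHH3* ran from 0.57 to 3.14, and its call ended without array 2. In pyruvate dehydrogenase, the enzyme that feeds the cycle, 1 of 8 genes (12.5%) rose, near the 14.2% of all genes. It was *PKP2*, a kinase that inactivates the enzyme (0.74, adjusted p = 0.022). The catalytic subunits did not, with *PDB1* lowest at -0.45 (adjusted p = 0.224). Of 10 genes of ubiquinone synthesis and use *COQ4*, which holds the synthesis complex together, rose (0.65) and *COQ10*, a ubiquinone-binding protein, fell (-0.36), and *COQ2*, the prenyltransferase, had the lowest mean (-0.71, adjusted p = 0.0574). With 1 gene up and 1 down, this list lies near the shares of all genes, 14.2% and 12.9%.

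Mitochondrial carriers moved in both directions, 3 of 13 (23.1%) up and 2 down, where 14.2% of all genes rose and 12.9% fell. The count of those that fell lies near the share of all genes. *MPC3*, the pyruvate carrier subunit used in respiring cells, had the highest mean of the 120 genes, with 4.55, 5.05 and -0.95 in the YJR13 pair, against 6.83, 3.85 and 5.25 in the YJR6 pair. Array 3 stood apart from the other 5, and the mean of 4.10 carried an SE of 0.91 (adjusted p = 0.0197), with a call that ended without array 1, 2, 4 or 6. *ODC1*, a carrier of oxodicarboxylates, rose 1.96-fold (SE 0.15, adjusted p = 0.0064). *AAC3*, the ADP/ATP carrier of anaerobic growth, fell by 1.08 (SE 0.22, adjusted p = 0.0161).

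Among 15 regulators 3 (20%) rose, *CAT8*, *ADR1* and *ROX1*, and 1 fell, near the shares of all genes, 14.2% and 12.9%. *CAT8*, the activator of gluconeogenic genes, was highest, with 2.50, 3.34 and -0.46 in the YJR13 pair, against 4.25, 3.32 and 2.33 in the YJR6 pair. It rose by 2.55 on the log2 scale (SE 0.56, limma adjusted p = 0.0191), a call that ended without array 2, 4 or 6. *ROX1* rose by 0.45 (adjusted p = 0.0463), a call that ended under 6 of 10 other settings. *MIG1* averaged 0.99 (SE 0.41) and did not pass the test (adjusted p = 0.116). *HXK2*, the hexokinase that takes part in glucose repression, was lower on 6 of 6 arrays and fell by 1.27 (SE 0.29, adjusted p = 0.0204), a call that ended without array 4 or 6. *HAP4*, the activating subunit of the Hap complex, named after its value was seen, had 1.33, 1.47 and 1.62 in the YJR13 pair, against 1.87, -0.87 and 2.99 in the YJR6 pair. It was above 0 on 5 of 6 arrays and averaged 1.40 (SE 0.44, adjusted p = 0.0524), and it was called under 7 of the 11 other settings. The DNA-binding subunits *HAP2*, *HAP3* and *HAP5* averaged 0.41, -0.20 and -0.12 and did not pass the test.

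**Figure D5:**
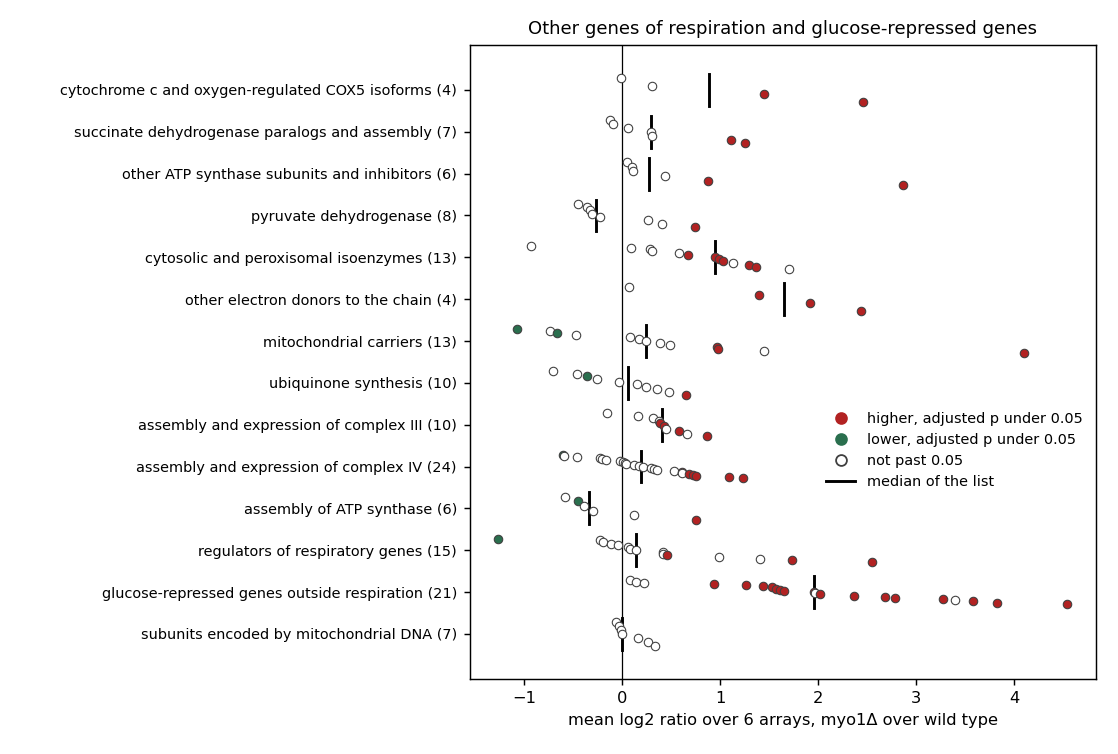
Mean log2 ratio of myo1Δ over wild type over 6 arrays (horizontal axis) of each other gene, by list, with the number of genes in parentheses. Filled points passed an adjusted p of 0.05 and vertical bars are medians of the lists. Electron donors and glucose-repressed genes have medians of 1.65 and 1.96, and genes of mitochondrial DNA cluster at 0.

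The 7 subunits encoded by mitochondrial DNA, added to the lists after the files were read, had means from -0.07 to 0.33 and 0 rose or fell in limma (0 also at an unadjusted p of 0.05). Their median spots were 1.11 times background in the mutant channels and 1.10 times in the wild type channels, so the arrays say little of them.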

How the data were processed

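RNA of *myo1Δ* and wild type yeast was compared on 6 Agilent arrays with 2 colours. The authors quantified spots with ImaGene (6.0.0 per the file headers). The deposited spot tables give mean spot intensity and median local background intensity per channel in scanner units. The authors used limma for background correction, lowess within arrays and empirical Bayes tests. Log2 ratios deposited by the authors for all arrays proved to be Cy5 over Cy3, uncentred per gene, and were recomputed from the intensities to within 4.74e-08 by row order. Their medians were 0.0184, -0.0103, 0.0131, 0.0191, -0.000676 and -0.00179 on arrays 1 to 6.

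Here R 4.3.3 and limma 3.58.1 were used. Poor spots (flag 3) were left out, and they and control spots had no weight in the curve. Normexp (offset 50) served for background and loess for normalization, and ratios were turned to *myo1Δ* over wild type, and spots were averaged per systematic name. Each gene was fitted with lmFit and eBayes against 0, with p-values adjusted over 6256 genes at 0.05 and 0.01. A model with a coefficient per strain pair gave each pair and their difference. Of the 46 genes 29 had 2 spots and 17 had 1. The number of arrays limits the precision, and SE is the moderated standard error. The method was tested on simulated data. Symbols came from a RefSeq table for 5756 genes. Promoter and protein sequences were not analysed here.

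The 46 genes, the other lists and the tests were chosen with earlier results of these data known. Named in full were the highest and lowest gene of each complex, those past 0.01, the largest pair differences, the extremes of each other list and the glucose-repressed genes with the smallest p. Others were named after their values were seen. Alternatives concerned background, normalization, flags, intensity, dye, slide, strain pair, the deposited ratios and each array in turn. The slide was inferred from the names of the scanned images, since the sample labels do not give it. A gene that this rule names is not reported here.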

Additional observations from a re-analysis of the deposited data

Results flagged for a closer look

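A value far from the others was looked for in 99 genes, the 46 and part of the other lists. Of these, 4 genes outside the 46 had an array whose gap to the nearest other array was larger than Dixon's limit. Chance alone gives such a gap in about 5 of 100 groups. *AAC3* was at -2.29 on array 4, with the nearest other array at -1.02. *DLD1*, the D-lactate dehydrogenase of the inner membrane, was at -0.44 on array 3, with the nearest at 1.40. *ODC2*, the paralog of *ODC1*, was at 0.26 on array 1, with the nearest at -0.69, and it was lower on the other 5 arrays. *COB* (Q0105), cytochrome b encoded by mitochondrial DNA, was at 1.62 on array 2, with the nearest at 0.36.

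*IDP1*, the mitochondrial NADP-dependent isocitrate dehydrogenase, had values of opposite sign in the strain pairs and was named after this was seen. It had 1.43, 1.79 and 0.68 in the YJR13 pair, against -0.85, -0.18 and -1.08 in the YJR6 pair. The difference of 2.01 (SE 0.38) did not pass the test of limma over all genes (adjusted p = 0.554). Nor did the mean of either pair, 1.30 for YJR13 (adjusted p = 0.0676) and -0.70 for YJR6 (adjusted p = 0.114).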

How the results depend on the processing

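Across the alternatives run, 0 of the 46 genes were lower at an adjusted p of 0.05, and 8 genes (*SDH1*, *SDH4*, *NDI1*, *NDE2*, *COR1*, *QCR2*, *QCR6* and *QCR8*) were called higher under each of 11 settings and without each array. Of the 20 genes that rose, 12 were called under every setting that keeps all arrays and tested them. The count of 20 was 7 at an adjusted p of 0.01 and between 15 and 22 under the 11 settings. The share of all genes that rose ran from 11% to 23.1% under these settings. The 23.1% was among brighter genes, where 32 of the 46 were tested. Without each array the count ran from 13 (without array 2) to 19, and the share of all genes from 6.25% (without array 2) to 16.3%. At an adjusted p of 0.01 the count of 7 was 1 without background correction, 2 with a dye effect, 4 with strain pair as a term, 11 with median normalization, 12 with the slide as a random block, 13 with plain subtraction or with every flagged spot left out, 16 with a normexp offset of 0 and 14 where testing was limited to brighter genes, those above the median intensity. Without each array it ran from 0 (without array 2 or 6) to 7. With median normalization 1 TCA gene and 0 complex V genes were called. Without each array 1 to 5 TCA, 4 to 6 complex III and 0 to 2 complex IV genes were called, and complex IV had 2 with a normexp offset of 0 or a dye effect. The 3 calls of the YJR13 pair became 14 with scaling between arrays or a normexp offset of 0, 1 without background correction, 13 with median normalization and 0 with a dye effect, and 0 to 3 without each array. The 9 of the YJR6 pair were 3 with scaling and 0 to 9 without each array. The median of 0.61 was 1.00 with plain subtraction and 1.03 with a normexp offset of 0. The difference between pairs was called for 0 of the 46 genes under every alternative run. For the counts at 0.01 and for those of the pairs, the shares of all genes under the other settings are not given here. Changes in these counts can therefore not be told apart from changes over the whole array. The causes of these changes were not tested. The number of arrays, 3 per pair, and spots near background limit the precision. No paired analysis was possible because the strain pairs share no replicate number, beyond the pairing of mutant with wild type that each array already holds. With the slide as a random block 21 of the 46 genes were called higher, where 17.6% of all genes rose. The planned search of promoters was not run.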

Other observations

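The lists differed in how many genes were below 0 on array 3 alone, which was noticed after the values were seen. Of the 120 other pathway genes, 15 were above 0 on the other 5 arrays and below 0 on array 3, namely *CIT2*, *MDH2*, *PYC1*, *ICL1*, *DLD1*, *MPC2*, *MPC3*, *COQ8*, *CBP1*, *SCO1*, *ROX1*, *MOT3*, *CAT8*, *ADR1* and *MIG1*. For the other arrays this count was 1, 1, 2, 8 and 4 (arrays 1, 2, 4, 5 and 6). Of the 46 TCA and respiratory genes 0 did so on array 3, and of the 21 glucose-repressed genes 4 did (*SUC2*, *JEN1*, *POX1* and *POT1*). *ADR1*, the activator of genes for ethanol and fatty acid use, had 1.34, 3.02 and -0.27 in the YJR13 pair, against 1.97, 2.48 and 1.84 in the YJR6 pair, a rise of 1.73 on the log2 scale (SE 0.40, limma adjusted p = 0.021) whose call ended without array 2, 4, 5 or 6. By the names of the scanned images, array 3 and array 4, of different strain pairs, share a slide. The part of the culture, the labeling or the slide was not tested.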
